A study of Drosophila melanogaster with 12 samples.

Results

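Adult Drosophila melanogaster mutant for DHR96 were compared with wild-type flies on a sucrose diet. The groups compared hold 6 of the 12 oligonucleotide arrays of the series, 3 of mutant flies on sucrose and 3 of wild-type flies on sucrose, and it took in all 18769 probe sets. The other 6 arrays, 3 of the mutant and 3 of wild type on sucrose with 0.3% phenobarbital, a barbiturate drug, entered the same fit, so they shaped the estimate of spread behind every SE and p on sucrose but not the differences themselves. They also showed how the same genes stood between the genotypes on the drug diet. Wild type was Canton S, a laboratory strain. The mutant arrays carry the short name E25, which was read as the DHR96 mutant by elimination, because the series names no other mutant. All flies, mutant and wild type, had been starved overnight before they were fed. The labels describe neither the allele nor the sex of the flies, the genetic background of the mutant, the tissue taken or whether replicate arrays stand for separate cultures. The p-values below therefore measure the spread between arrays, which may be technical.

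DHR96, encoded by Hr96, is the only fly member of the nuclear receptor branch that in vertebrates includes the drug sensors PXR and CAR and the vitamin D receptor. It binds sterol ligands and is known in flies for roles in resistance to toxic compounds, in the uptake and storage of triglyceride and in the balance of cholesterol. In the intestine its known targets include a secreted lipase and proteins of the NPC2 and NPC1 families, which carry sterols. The comparison on sucrose asks how the transcriptome of the mutant differed when no drug was given.

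Values are log2 of normalized intensities, so a difference of 1 is a 2-fold difference. A value under 4, an intensity of 16, was called dim, and the size of a difference against a dim group rests on how the normalization modelled background. Per array, the median intensity was 38.5 to 47.5 and 44.4% to 45.6% of probe sets were dim. Wild-type array 2 stood apart on sucrose, with an SD of log2 differences of 0.48 and 0.53 to the other wild-type arrays, while the mutant arrays differed from each other by 0.29 to 0.43. Wild-type array 3 lay at 0.31 from mutant arrays 1 and 2, as close as arrays of 1 genotype lay to each other. In bulk RNA, fewer cells of a type and less RNA per cell cannot be told apart. Markers of both sexes were measured in every sucrose array, and their levels moved between arrays. The mean of 22 female tissue markers was 10.59, 10.41 and 9.62 in the mutant arrays, against 8.80, 7.40 and 9.62 in the wild-type arrays. The mean of 23 testis markers was 9.18, 8.83 and 9.40 in the mutant arrays, against 8.83, 9.45 and 8.94 in the wild-type arrays.

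Hr96 itself stood higher in the arrays labelled mutant. Its log2 value was 10.06, 9.99 and 9.91 in the mutant arrays, against 8.44, 8.20 and 8.53 in the wild-type arrays. The groups did not overlap, and the mutant was 3.03-fold above wild type (log2 difference 1.60 ± 0.14, SE; limma adjusted p = 0.0022). A transcript level does not show the state of the receptor, and neither the allele nor where the probe set lies relative to it is described in the sources used. Every direction below is that of the arrays labelled mutant.

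The genes directly beside Hr96 on chromosome arm 3R were higher with it. EMC6, which encodes a subunit of a complex that inserts proteins into the endoplasmic reticulum membrane, had 10.26, 10.25 and 10.29 in the mutant arrays, against 8.59, 8.58 and 8.84 in the wild-type arrays. Smg6, whose product cuts transcripts in nonsense-mediated decay, had 11.42, 11.32 and 11.42 in the mutant arrays, against 10.07, 10.01 and 9.98 in the wild-type arrays. Mutant arrays lay at least 1 log2 unit above every wild-type array for both genes. The differences were 1.60 ± 0.09 for EMC6 (SE; limma adjusted p = 0.000359) and 1.37 ± 0.06 for Smg6 (adjusted p = 3.46e-05), the smallest adjusted p of the comparison. The next measured gene beyond EMC6 was beta4GalT7, a galactosyltransferase of proteoglycan synthesis. It had 9.0, 9.29 and 9.10 in the mutant arrays, against 8.52, 8.06 and 8.73 in the wild-type arrays, and was not called (0.69 ± 0.19; adjusted p = 0.206). Beyond it tnc was dim in both genotypes, and on the other side Ythdf and CG31115 differed by 0.18 ± 0.18 and 0.30 ± 0.34 (SE; adjusted p = 0.927 and 0.969). Of 21 other measured genes within 12 places of Hr96, 0 were called and their differences ran from -0.34 to 0.56. Calls in that stretch were thus limited to Hr96 and the gene on either side of it. The nearest calls outside it on 3R were CG10514, CG31097 and LpR1. They stand at places 3289, 3297 and 3364 in the gene order of the arm, where Hr96 has place 3221.

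**Figure D1:**
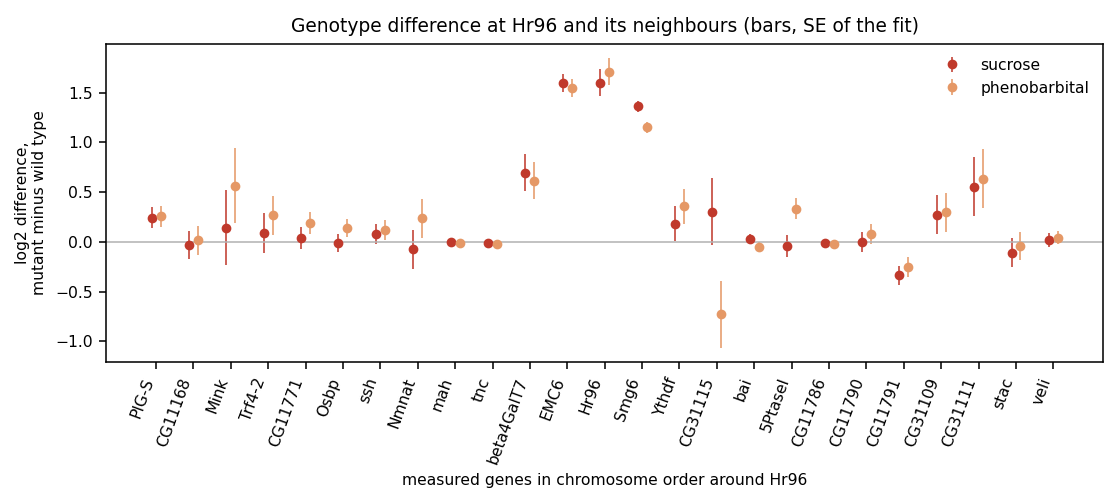
The log2 difference (mutant minus wild type, y axis) of Hr96 and the measured genes around it, in chromosome order along the x axis, on sucrose and on phenobarbital, with bars for the SE of the fit. EMC6, Hr96 and Smg6 stand at 1.37 to 1.60 on sucrose, beta4GalT7 at 0.69, and the points of the other genes on sucrose lie between -0.34 and 0.56.

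Across all probe sets, 40 were called between mutant and wild type on sucrose, 11 higher and 29 lower in the mutant (limma; called means an adjusted p under 0.05 with a difference of 1.5-fold or more). The called share was 0.213% of the 18769 probe sets, 0.0586% higher and 0.155% lower. They named 36 single genes, 10 higher and 26 lower, while 2 probe sets named several genes and 2 named none. The median absolute difference of the calls was 1.23 on the log2 scale, and 27 of them were at least 2-fold. The dim limit touched 9 calls, of which 5 were dim in the mutant, 1 in wild type and 3 in both groups. All 40 separated the 3 mutant arrays from the 3 wild-type arrays without overlap, which 3.23% of all probe sets did with the mutant higher and 7.32% with the mutant lower. Since the 40 were chosen by p on these same arrays, that separation largely follows from the choice. At an unadjusted p under 0.05, 448 probe sets (2.39%) were higher and 1369 (7.29%) lower. The number of lower calls depended on single arrays: it was 170 without wild-type sucrose array 3, 10 without mutant sucrose array 1, 19 without mutant sucrose array 3, and 16 without mutant phenobarbital array 1 or 2. The number of higher calls was 9 to 15 over the same fits. Fitted on the 6 sucrose arrays alone, limma called 4 probe sets, among them EMC6, Smg6 and CG10514.

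**Figure D2:**
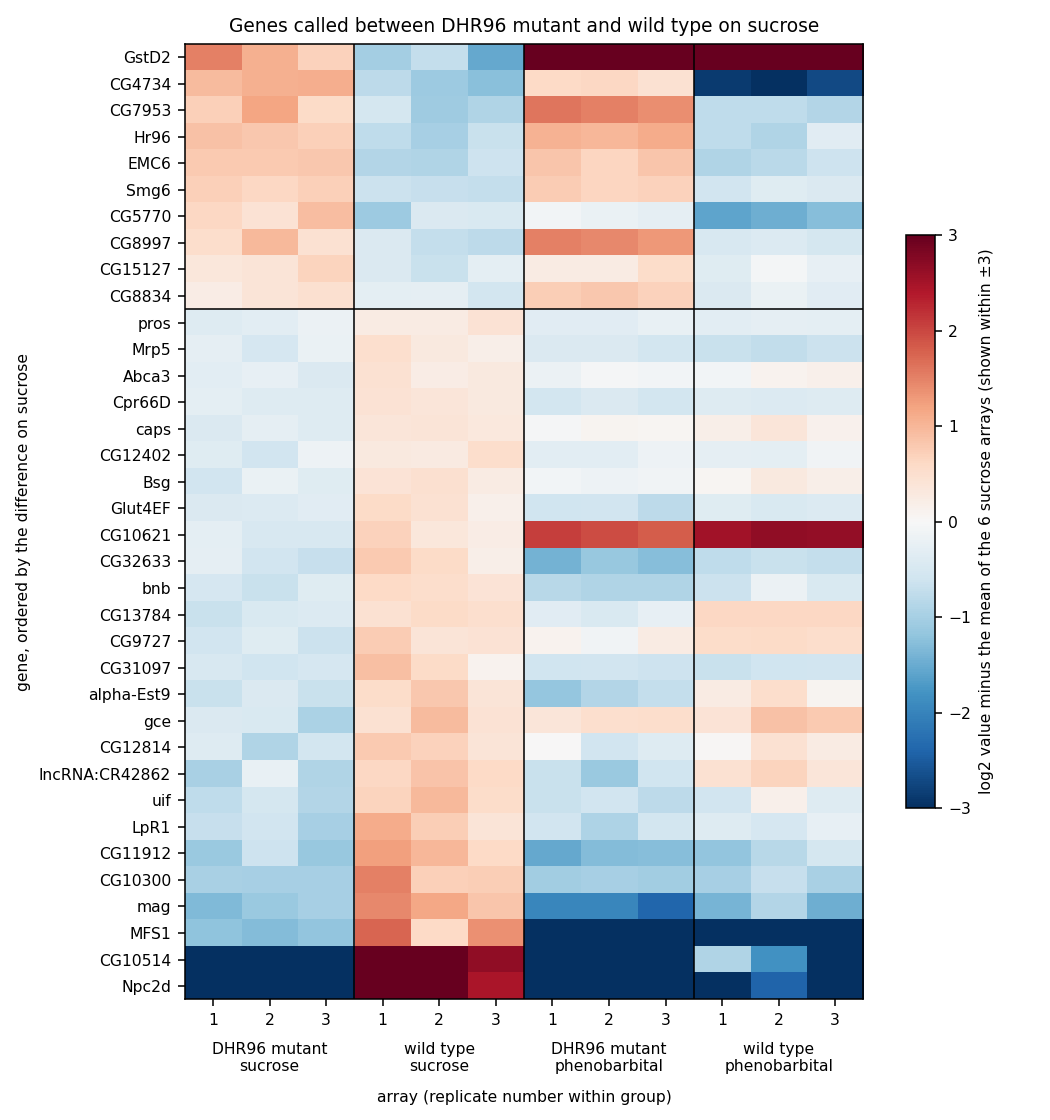
Log2 value of each of the 36 called genes in all 12 arrays, each minus the mean of the 6 sucrose arrays and shown within 3 log2 units either way, with mutant columns left of wild type on each diet. Red cells are above and blue cells below that mean; the 10 upper rows are red in the mutant on sucrose, and the 26 lower rows are blue there.

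The largest called differences were in a sterol carrier gene and a predicted kinase gene, both dim in every mutant array. Npc2d belongs to the NPC2 family of small secreted sterol-binding proteins. It had 2.03, 2.06 and 2.05 in the mutant arrays, against 10.07, 8.44 and 7.86 in the wild-type arrays. The mutant sat at the bottom of the scale on each array while wild type ranged over more than 2 log2 units. The difference was -6.75 ± 0.48 (SE; limma adjusted p = 0.000816), or 27.7-fold lower when dim values were set to 4 (adjusted p = 0.00867). CG10514 encodes a member of the EcKL family, named for its likeness to ecdysteroid kinases. It had 2.26, 2.19 and 2.26 in the mutant arrays, against 8.99, 8.90 and 8.13 in the wild-type arrays. Again the mutant was dim on each array and wild type was bright (-6.43 ± 0.50; adjusted p = 0.00128), 25.5-fold lower with dim values set to 4.

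Of 16 measured genes for sterol and dietary lipid uptake, 2 were called lower, Npc2d and mag, and 0 higher. Taking 1 probe set per gene, 0.0835% of 11982 genes were called higher and 0.175% lower. The list's median was -0.14, against -0.003 over all genes. The gene mag encodes magro, a lipase secreted in the intestine that also splits cholesterol esters and is a known target of DHR96. It had 8.71, 8.91 and 9.03 in the mutant arrays, against 11.48, 11.19 and 10.87 in the wild-type arrays. The mutant arrays lay well below all wild-type arrays, and mag was 4.91-fold lower (-2.30 ± 0.21; adjusted p = 0.00308).

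Npc2e, of the same family and from the same stretch of 3R as Npc2d, had 13.46, 13.69 and 13.44 in the mutant arrays, against 9.90, 7.0 and 10.51 in the wild-type arrays. Every mutant array was thus well above every wild-type array, in the opposite direction to Npc2d. The wild-type arrays spread over more than 3 log2 units and the difference of 4.39 ± 1.0 (SE) was not called (limma adjusted p = 0.134). Npc2c, the remaining gene of that group, was dim in both genotypes at about 2.2. Npc2h and Npc2g differed by -1.02 ± 0.20 and -0.62 ± 0.17 and did not pass the test on sucrose (adjusted p = 0.0963 and 0.226). Npc2a, the closest fly relative of human NPC2, and Npc1a, its membrane partner, differed by 0.18 and -0.05. Npc1b, also of the NPC1 family, had no probe set that named it alone, so its level was not read.

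The lipophorin receptor gene LpR1, which mediates the uptake of lipoprotein lipid, gave a call from 1 of its 2 probe sets. That probe set had 4.70, 4.81 and 4.39 in the mutant arrays, against 6.50, 6.14 and 5.78 in the wild-type arrays, with no overlap (-1.51 ± 0.19; limma adjusted p = 0.018). The brighter probe set had 10.34, 10.19 and 10.29 in the mutant arrays, against 10.45, 10.58 and 10.46 in the wild-type arrays, and gave -0.22 ± 0.05 with no call (adjusted p = 0.116). Both probe sets were lower in the mutant, by very different amounts. The lipophorin gene apolpp and Mtp, which loads lipid onto it, differed by 0.08 and 0.25 without a call. Of 22 triglyceride lipase and lipid storage genes, 14 fatty acid synthesis genes and 7 fatty acid oxidation genes, limma called 0, and 0 of them reached an unadjusted p under 0.05. Their medians were 0.02, -0.01 and 0.06. In the added fit with the testis marker mean as a covariate limma likewise called 0 of these 43 genes.

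**Figure D3:**
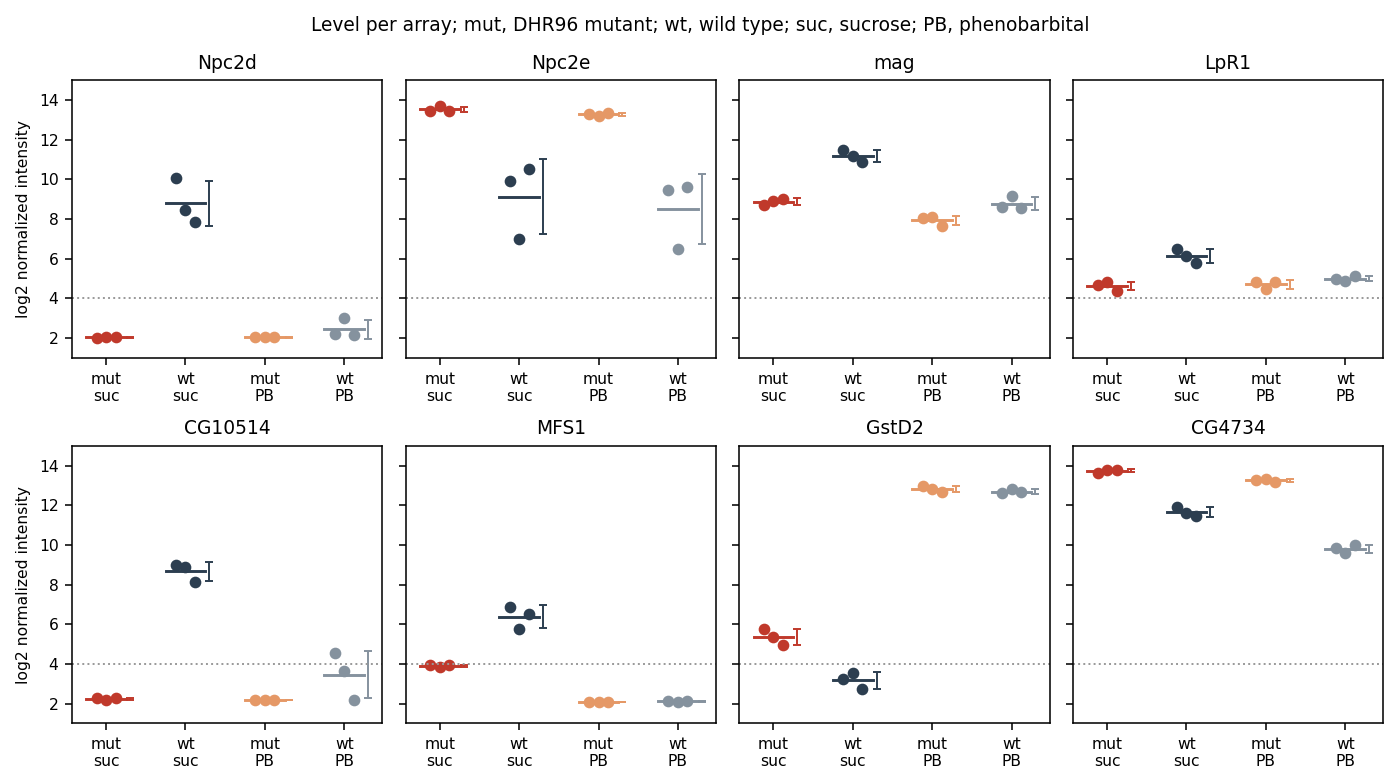
Log2 normalized intensity (y axis) of 8 genes in each of the 12 arrays, with the mutant left of wild type on sucrose and then on phenobarbital; points are arrays, lines group means, bars SD, and the dotted line the dim limit of 4. Npc2d and CG10514 are bright in wild type on sucrose and dim or nearly so in the other groups, while Npc2e is above 13 in every mutant array.

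Transporters and enzymes of drug metabolism gave few calls. MFS1, a transporter of the major facilitator superfamily, had 3.93, 3.85 and 3.95 in the mutant arrays, against 6.88, 5.73 and 6.51 in the wild-type arrays. It was dim in each mutant array and 5.53-fold lower (-2.47 ± 0.23; limma adjusted p = 0.00341). The other 9 genes named for that superfamily gave no call, with the list's median at -0.11. Of 15 ABC and organic anion transporter genes Mrp5 alone was called, with 6.83, 6.59 and 6.91 in the mutant arrays, against 7.61, 7.39 and 7.29 in the wild-type arrays. Its difference of -0.65 ± 0.10 (adjusted p = 0.0372) was called under 5 of 22 other settings, the fewest of any call. Abca3, a further ABC transporter gene outside that list, was lower by a similar amount (-0.66 ± 0.08; adjusted p = 0.0156).

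Of 36 glutathione S-transferase genes, GstD2 was called higher and 0 lower, where 0.0835% of all genes were called higher. At an unadjusted p under 0.05, 6 of the 36 were higher and 1 lower, against 3.26% and 8.62% of all genes. GstD2 had 5.76, 5.33 and 4.94 in the mutant arrays, against 3.24, 3.54 and 2.72 in the wild-type arrays. Wild type was dim on every array and the mutant above the dim limit on every array (2.18 ± 0.24; limma adjusted p = 0.00912), a 2.54-fold difference with dim values set to 4. GstD5, in the same cluster on 3R, had 8.01, 5.24 and 5.78 in the mutant arrays, against 4.72, 3.84 and 3.46 in the wild-type arrays. These groups did not overlap either, and the call was missed with the wide spread of the mutant (2.33 ± 0.66; adjusted p = 0.234). GstD1, the bright member of the cluster, had 13.53, 13.70 and 13.38 in the mutant arrays, against 13.20, 13.10 and 13.49 in the wild-type arrays, which overlapped (0.27 ± 0.10; adjusted p = 0.424).

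The carboxylesterase gene alpha-Est9, from the alpha-esterase cluster of 3R, was the only called one of 18 carboxylesterase genes. It had 7.20, 7.43 and 7.20 in the mutant arrays, against 8.42, 8.65 and 8.25 in the wild-type arrays, a clear separation (-1.17 ± 0.16; limma adjusted p = 0.0237). Its neighbours alpha-Est8 and alpha-Est10 differed by -0.52 ± 0.15 and -0.45 ± 0.13 without a call (adjusted p = 0.263 and 0.258). Of the 18 carboxylesterase genes, 5 were lower and 0 higher at an unadjusted p under 0.05, against 8.62% and 3.26% of all genes. A difference below 0 was found in 16 of them, against 53.1% of all genes. Limma called 0 of 83 cytochrome P450 genes, which oxidise drugs and hormones. At an unadjusted p under 0.05, 13 P450 genes were lower and 1 higher, against 8.62% lower and 3.26% higher over all genes. The strongest of these were Cyp4ac1 (-0.98 ± 0.23; adjusted p = 0.159), Cyp313a4 (-0.37 ± 0.09; adjusted p = 0.182) and Cyp6a20 (-0.58 ± 0.18; adjusted p = 0.27). Without wild-type sucrose array 3, limma called 4 P450 genes lower. That fit called 170 of all 18769 probe sets lower, against 29 with all arrays. Limma called 0 of 35 UDP-glycosyltransferase genes, 5 of which were lower at an unadjusted p under 0.05, and 2 without wild-type sucrose array 3. Ugt37A2, Ugt303A1 and Ugt303B3 led them with -0.72 ± 0.18, -0.62 ± 0.20 and -0.36 ± 0.10.

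Among 45 measured EcKL genes, 2 were called lower, CG10514 and CG31097, and 0 higher, where 0.175% of all genes were called lower. At an unadjusted p under 0.05, 7 of the 45 were lower and 1 higher, against 8.62% and 3.26% of all genes. A difference below 0 was found in 35 of them, against 53.1% of all genes. CG31097 was dim in both genotypes, with 2.45, 2.33 and 2.43 in the mutant arrays, against 3.84, 3.52 and 3.05 in the wild-type arrays (-1.06 ± 0.16; limma adjusted p = 0.0368). With dim values set to 4 that difference was 0 by construction. Within 12 places of CG10514 on 3R lay 15 other EcKL genes, whose differences ran from -1.06 to 0.61, CG31097 being the lowest. Neighbours of CG10514 that were bright in both genotypes included CG10513, at 10.96, 10.51 and 10.97 in the mutant arrays, against 10.70, 11.06 and 10.56 in the wild-type arrays. These overlapped fully (0.04 ± 0.27; adjusted p = 0.994), so the gene directly beside CG10514 gave no separation. CG31102 and CG31087 differed by -0.80 and -0.67 without a call, and without wild-type sucrose array 3 limma called 6 EcKL genes lower. Of all 18769 probe sets, 170 were called lower in that fit.

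The largest higher call among bright genes was CG4734. It had 13.64, 13.76 and 13.79 in the mutant arrays, against 11.91, 11.60 and 11.44 in the wild-type arrays, and was 4.23-fold higher (2.08 ± 0.13, SE; limma adjusted p = 0.000383). CG7953 and CG8997, which lie on either side of CG7916 in 1 cluster on 2L, were both higher. CG7953 had 12.94, 13.41 and 12.80 in the mutant arrays, against 11.69, 11.16 and 11.32 in the wild-type arrays (1.66 ± 0.17; adjusted p = 0.00686). CG8997 had 12.93, 13.38 and 12.85 in the mutant arrays, against 11.96, 11.69 and 11.61 in the wild-type arrays (1.30 ± 0.14; adjusted p = 0.00803). In both genes mutant array 2 was the highest of all 6. CG7916 between them had 10.41, 11.14 and 10.61 in the mutant arrays, against 10.67, 10.31 and 10.15 in the wild-type arrays, which overlapped (0.34 ± 0.19; adjusted p = 0.667). CG5770, CG8834 and CG15127 were also higher, by 1.33 ± 0.19, 0.74 ± 0.09 and 0.93 ± 0.14 (adjusted p = 0.0307, 0.0182 and 0.0372).

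Of 8 genes of juvenile hormone turnover and response, 1 was called lower, and limma called 0 of 17 ecdysone genes. The gene gce encodes a receptor for juvenile hormone, a lipid hormone of growth and reproduction. It had 4.29, 4.28 and 3.79 in the mutant arrays, against 5.19, 5.68 and 5.18 in the wild-type arrays, with no overlap (-1.23 ± 0.19; limma adjusted p = 0.0422). That call was made under 8 of 22 other settings, and the second gce probe set was dim in both groups. All 8 juvenile hormone genes had a difference below 0, as did 53.1% of all genes, with a median of -0.43. Kr-h1, a transcription factor induced by juvenile hormone, had 8.56, 8.27 and 8.49 in the mutant arrays, against 8.91, 8.88 and 9.01 in the wild-type arrays (-0.49 ± 0.10; adjusted p = 0.104). Among 20 nuclear receptor genes Hr96 alone was called. Hnf4, a nuclear receptor that responds to fatty acids and acts in fasting, had 10.43, 10.41 and 10.41 in the mutant arrays, against 10.61, 10.57 and 10.59 in the wild-type arrays. The shift of Hnf4 was small and tight (-0.17 ± 0.03; adjusted p = 0.0529).

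The transcription factor gene pros, which acts in nerve and gut endocrine cells, had 4.41, 4.48 and 4.62 in the mutant arrays, against 5.05, 5.04 and 5.23 in the wild-type arrays (-0.60 ± 0.07; limma adjusted p = 0.00912). The caps gene, which encodes an adhesion protein with leucine-rich repeats, had 6.36, 6.52 and 6.39 in the mutant arrays, against 7.15, 7.18 and 7.11 in the wild-type arrays (-0.72 ± 0.07; adjusted p = 0.0032). The basigin gene Bsg, for a membrane protein of the immunoglobulin superfamily, had 9.15, 9.53 and 9.36 in the mutant arrays, against 10.15, 10.20 and 9.98 in the wild-type arrays (-0.76 ± 0.10; adjusted p = 0.0202). For the called probe sets of pros, caps and Bsg no mutant array reached a wild-type array. The brighter Bsg probe set gave -0.34 ± 0.13 without a call (adjusted p = 0.414), and the other caps probe sets gave -0.37 ± 0.20 and -0.18 ± 0.14 (adjusted p = 0.656 and 0.853), the last with overlapping groups. The uif gene, for a large transmembrane protein of the tracheal surface, was dim on nearly every sucrose array and differed by -1.45 ± 0.19, or by -0.02 with dim values set to 4. Cpr66D, the only called one of 66 cuticle protein genes, was dim in both groups and had no difference with dim values set to 4.

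The remaining calls were lower in the mutant by 0.72 to 1.97. CG10300 had 3.42, 3.39 and 3.38 in the mutant arrays, dim throughout, against 5.89, 5.10 and 5.13 in the wild-type arrays (-1.97 ± 0.19; limma adjusted p = 0.00386), or -1.37 with dim values set to 4. CG11912 had 6.93, 7.43 and 6.91 in the mutant arrays, against 9.28, 9.05 and 8.65 in the wild-type arrays (-1.90 ± 0.22; adjusted p = 0.0114). Neither gene's groups overlapped. CG13784 had 5.14, 5.34 and 5.39 in the mutant arrays, against 6.27, 6.37 and 6.31 in the wild-type arrays, one of the tightest separations (-1.03 ± 0.07; adjusted p = 0.000528). Its brightest probe set, at a mean of about 9.2 in both groups, gave 0.01 ± 0.07. Also lower were CG9727 (-1.05), bnb (-1.02), CG32633 (-1.02), CG10621 (-0.84), the transcription factor gene Glut4EF (-0.79), CG12402 (-0.72), CG12814 (-1.23) and the noncoding RNA gene lncRNA:CR42862 (-1.39). CG12402 was dim in all mutant arrays, at 3.26 to 3.67, and with dim values set to 4 its difference was -0.19 and not called (limma adjusted p = 0.323). The brightest Glut4EF probe set gave -0.20 ± 0.22 with overlapping groups (limma adjusted p = 0.97) and the next -0.90 ± 0.23 (adjusted p = 0.192). Neither was called, and the remaining Glut4EF probe sets were dim. Of the other lncRNA:CR42862 probe sets, the brightest gave 0.07 ± 0.07 (adjusted p = 0.929) and the next -0.52 ± 0.08 (adjusted p = 0.0521), neither called. For the called probe sets of these 8 genes limma adjusted p lay between 0.0104 and 0.0452. CG32633, CG12402 and CG12814 were called under 6 or 7 of 22 other settings. In all, 9 called genes had 15 further probe sets on the array, of which 0 were called in limma and 6 were dim.

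By position, 16 of the 36 called genes lay on 3R, 44.4% against 25% of all measured genes. These included Hr96, EMC6, Smg6, Npc2d, CG10514, CG31097, alpha-Est9, GstD2 and LpR1, of which 4 in all were higher and 12 lower. Arm 2L held 7 called genes, 2R 5, and 3L and X 4 each. No test was made of these shares, and genes that share a cluster are not independent.

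**Figure D4:**
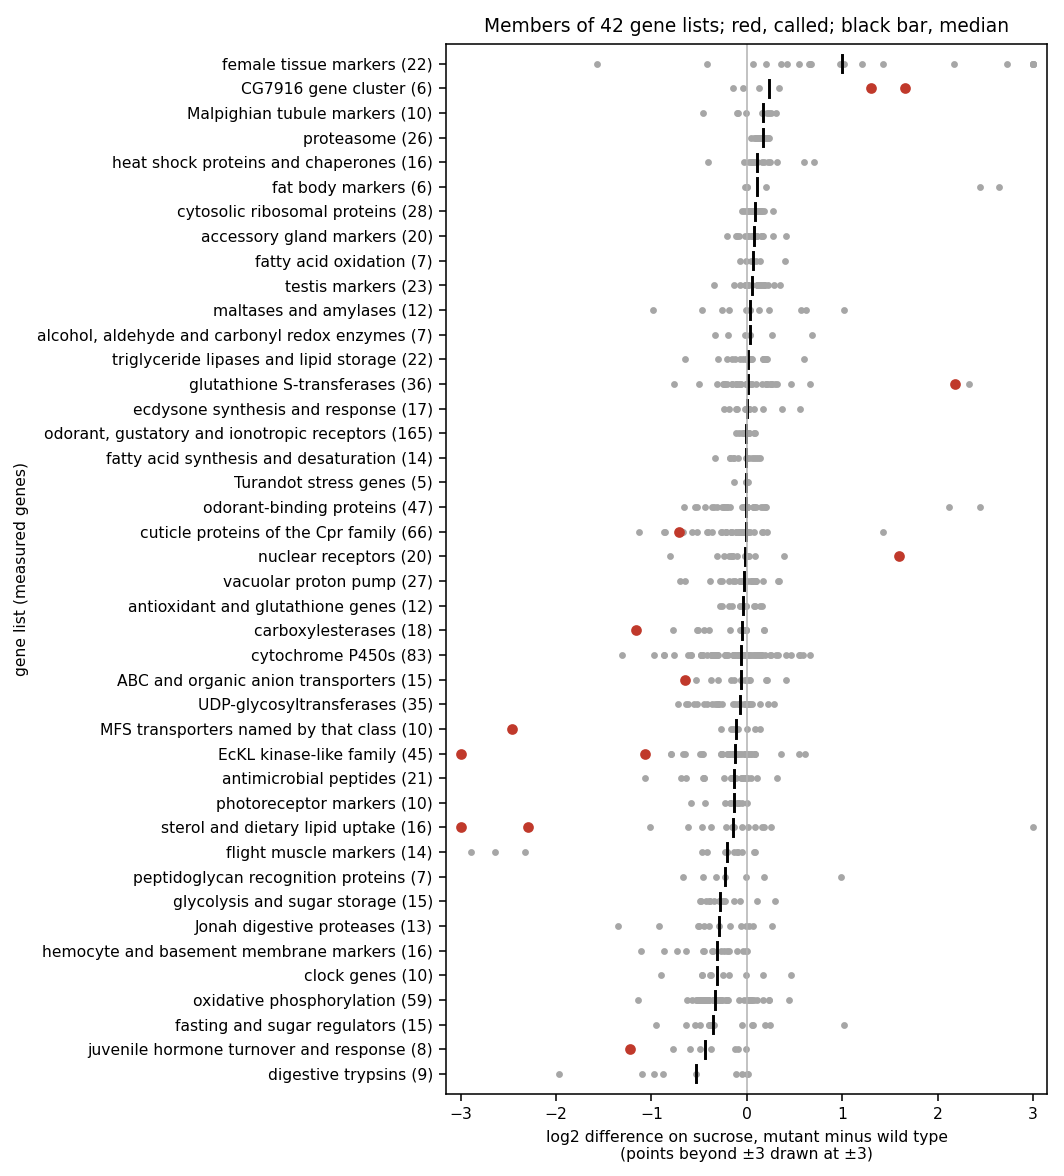
The log2 difference on sucrose (mutant minus wild type, x axis) of the measured genes of 42 lists, one row a list with its number of measured genes in brackets; red points were called, black bars are medians, and points beyond 3 are drawn at 3. Medians run from -0.54 for digestive trypsins to 0.99 for female tissue markers, and 10 of the lists hold a red point.

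Small differences ran through several lists of gut, muscle and energy genes without calls. Of 59 oxidative phosphorylation genes, which build the respiratory chain and the ATP synthase, limma called 0. At an unadjusted p under 0.05, 42 were lower and 0 higher, against 8.62% and 3.26% of all genes. The median of the 59 was -0.33. In 32 of the 59 every mutant array lay below every wild-type array, against 8.53% of all genes. The blw gene, for an ATP synthase subunit, had 14.22, 14.40 and 14.19 in the mutant arrays, against 14.62, 14.68 and 14.55 in the wild-type arrays (-0.35 ± 0.06; limma adjusted p = 0.0566). The mean of the 59 was 11.09, 11.08 and 11.23 in the mutant arrays, against 11.57, 11.56 and 11.13 in the wild-type arrays, so wild-type array 3 lay among the mutant arrays. Without wild-type sucrose array 3, limma called 9 of these genes lower, and 170 of all 18769 probe sets. The testis copies of the subunits, such as ND-51L2 at 0.44 and ATPsynbetaL at 0.24, were not among the lower ones. Of 15 genes of glycolysis and sugar storage 0 were called and 11 were lower at an unadjusted p under 0.05 (median -0.28), led by Pfk, for phosphofructokinase (-0.38 ± 0.09; adjusted p = 0.159), and Gapdh1 (-0.48 ± 0.12; adjusted p = 0.172). Without wild-type sucrose array 3, 1 of the 15 was called lower.

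Of 14 flight muscle markers limma called 0, and 5 were lower at an unadjusted p under 0.05, against 8.62% of all genes. The fln gene, for the flight muscle protein flightin, had 9.62, 11.48 and 9.63 in the mutant arrays, against 13.80, 13.27 and 12.35 in the wild-type arrays, with no overlap (-2.90 ± 0.56; limma adjusted p = 0.0912). Act88F, the flight muscle actin, had 11.30, 12.86 and 11.07 in the mutant arrays, against 14.61, 14.19 and 13.41 in the wild-type arrays (-2.32 ± 0.50; adjusted p = 0.117). For both genes mutant array 2 was the highest mutant array and wild-type array 3 the lowest wild-type array. Muscle genes not restricted to flight muscle differed less, such as Mlc1 (-0.42 ± 0.07; adjusted p = 0.0576) and Prm (-0.10). The fln call was made without wild-type sucrose array 3 (-3.29, limma adjusted p = 0.0419), as were 170 lower calls among all 18769 probe sets. The part of muscle amount in the oxidative phosphorylation values was not tested.

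The trypsin and Jonah protease lists had mostly lower values and no call. Over all genes, 8.62% were lower at an unadjusted p under 0.05. Of 9 trypsin genes 5 were lower at an unadjusted p under 0.05 and the median was -0.54, with iotaTry at 6.86, 7.69 and 6.52 in the mutant arrays, against 10.07, 8.66 and 8.26 in the wild-type arrays (-1.97 ± 0.48; limma adjusted p = 0.161). The bright trypsin gene alphaTry differed by 0.01 ± 0.04. Of 13 Jonah genes, which encode gut chymotrypsin-like proteases, 5 were lower at an unadjusted p under 0.05. Jon99Fi had 10.98, 10.43 and 10.80 in the mutant arrays, against 11.95, 12.18 and 12.13 in the wild-type arrays, without overlap (-1.35 ± 0.22; adjusted p = 0.0529). It was called with a robust prior and an intensity trend (adjusted p = 0.0347). Without wild-type sucrose array 3, 2 trypsin genes were called lower, and 170 of all 18769 probe sets.

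Of 10 clock genes 5 were lower at an unadjusted p under 0.05, against 8.62% of all genes, and limma called 0. The repressor gene cwo had 10.30, 10.30 and 10.41 in the mutant arrays, against 10.72, 10.74 and 10.69 in the wild-type arrays. It passed the adjusted p but not the fold limit (-0.38 ± 0.05; adjusted p = 0.0156), as did the proton pump gene Vha44 (-0.39 ± 0.04; adjusted p = 0.00725) and the maltase gene Mal-B2 (-0.47 ± 0.07; adjusted p = 0.0456). The period gene per had -0.47 ± 0.10 (adjusted p = 0.126) and vri -0.39 ± 0.12 (adjusted p = 0.263). The time of day at sampling is not stated. Among 15 fasting and sugar regulators limma called 0 and 6 were lower at an unadjusted p under 0.05. These included foxo (-0.37 ± 0.10; adjusted p = 0.19) and InR, the insulin receptor gene (-0.40 ± 0.12; adjusted p = 0.245). One went the other way, the glucosidase gene tobi, with 9.92, 10.34 and 10.47 in the mutant arrays, against 9.88, 9.31 and 8.48 in the wild-type arrays (1.02 ± 0.30; adjusted p = 0.259).

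The 10 largest uncalled differences were mostly in genes of the eggshell, with a wide spread within a genotype. Cp38, a chorion protein gene, had 9.99, 11.72 and 7.95 in the mutant arrays, against 11.01, 1.91 and 3.47 in the wild-type arrays (4.42 ± 2.90, SE; limma adjusted p = 0.764). Cp15 had 13.63, 14.08 and 13.39 in the mutant arrays, against 12.57, 4.0 and 12.60 in the wild-type arrays. Wild-type array 2 was far below the other wild-type arrays for Cp15, and dim for Cp16, Cp18 and Cp36 as well. The eggshell gene yellow-g2 had 6.87, 7.71 and 4.93 in the mutant arrays and was dim at 1.92 to 1.93 in the wild-type arrays (4.58 ± 1.23; adjusted p = 0.21). Of 22 female tissue markers limma called 0, with a median of 0.99. The yolk protein gene Yp2, made in fat body and ovary, had 13.78, 13.61 and 13.36 in the mutant arrays, against 12.88, 12.88 and 13.01 in the wild-type arrays (0.66 ± 0.21; adjusted p = 0.289), while the oocyte gene grk had -0.42 ± 0.16 (adjusted p = 0.433). CG12057 was the only lower gene of the 10, with 5.12, 7.22 and 3.85 in the mutant arrays, against 10.89, 9.82 and 8.88 in the wild-type arrays (-4.47 ± 0.82; adjusted p = 0.0727). It was called without wild-type sucrose array 3 (-4.96, limma adjusted p = 0.0419), in a fit with 170 lower calls over all probe sets.

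The 26 proteasome genes all had a difference above 0, as did 46.9% of all genes, with a median of 0.16 and 0 calls, and 1 of them was under an unadjusted p of 0.05.

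Lists of immunity and stress genes held no call. Of 21 antimicrobial peptide genes, 7 peptidoglycan recognition genes and 5 Turandot stress genes limma called 0, with medians of -0.14, -0.22 and -0.01. Of the antimicrobial peptide genes 17 had a difference below 0, against 53.1% of all genes, and 1 was lower at an unadjusted p under 0.05. At that p 1 recognition gene was higher and 2 were lower. Of 16 heat shock and chaperone genes and 12 antioxidant genes 0 were called, with medians of 0.11 and -0.04. Each list had 1 lower gene at that unadjusted p. A difference above 0 was found in 14 of the 16 heat shock and chaperone genes, against 46.9% of all genes. Among 28 cytosolic ribosomal protein genes 0 were called and the median was 0.09. At an unadjusted p under 0.05, 6 of them were higher and 0 lower, against 3.26% and 8.62% of all genes. Likewise 0 were called of 12 maltase and amylase genes and 47 odorant-binding protein genes, and the medians of these and of the ecdysone genes lay between -0.01 and 0.04.

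Markers of accessory gland, hemocytes and fat body gave no call in limma. The 20 accessory gland markers averaged 11.88, 11.34 and 12.23 in the mutant arrays, against 11.52, 12.04 and 11.68 in the wild-type arrays, which overlapped. The 16 markers of hemocytes and basement membrane averaged 6.76, 6.77 and 6.81 in the mutant arrays, against 7.34, 7.11 and 7.01 in the wild-type arrays, with no overlap. Their median difference was -0.31, and 15 of the 16 were below 0, against 53.1% of all genes. Of the 16, 5 were lower at an unadjusted p under 0.05, against 8.62% of all genes. The groups separated without overlap, with the mutant lower, for 7, against 8.53% of all genes. The 6 fat body markers had a median of 0.10, with 4 above and 2 below 0 and 2 dim in both genotypes. Among them Lsp2, a storage protein gene, had 4.57, 5.41 and 7.45 in the mutant arrays, against 3.03, 3.55 and 2.93 in the wild-type arrays (2.64 ± 0.80; limma adjusted p = 0.272). All 165 measured odorant, gustatory and ionotropic receptor genes were dim in both genotypes. With the testis marker mean as a covariate, a fit added after seeing the data, limma called 22 probe sets higher and 57 lower, and all 40 sucrose calls were among them. That mean overlapped between the genotypes on sucrose, so the fit could remove little of a genotype difference. Other marker lists were not used as covariates.

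The 40 calls were then read in the phenobarbital arrays, which hold the same genotypes. The differences on the diets come from separate arrays, while their SE and p share 1 estimate of spread over all 12. Limma called 22 probe sets there, 14 higher and 8 lower in the mutant (0.117% of all, 0.0746% higher and 0.0426% lower). With the replicate number as a block, it called 9 higher and 7 lower. Same-numbered phenobarbital arrays of the 2 genotypes deviated together, but so did wild-type array 2 and mutant array 1 (r = 0.40). Of the 40, 10 were called the same way, 8 of the 11 higher and 2 of the 29 lower, and 0 the other way. The 8 higher ones were Hr96, EMC6, Smg6, CG4734, CG7953, CG8997, CG8834 and a probe set without a gene name, and the 2 lower ones were CG13784 and alpha-Est9. With the block the unnamed probe set was not called, nor was CG7916, which is called on phenobarbital without it. By sign alone, 11 of 11 higher and 27 of 29 lower calls kept their direction, where 35.7% of all probe sets were above and 64.3% below 0 on phenobarbital. The exceptions were Mrp5 and CG31097. Mrp5 was higher in the mutant there without overlap, but not called (0.21 ± 0.10; limma adjusted p = 0.371). CG31097 differed by 0.02 and was dim in both genotypes. The groups separated without overlap in the same direction for 10 of the 11 higher calls and 22 of the 29 lower ones, where 9.94% and 41.5% of all probe sets did. The lower share of all probe sets was thus large on phenobarbital, and it was 7.32% on sucrose. Among the 22 were Npc2d, CG10514, MFS1, CG10300 and Cpr66D, whose means were dim in both genotypes on phenobarbital.

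**Figure D5:**
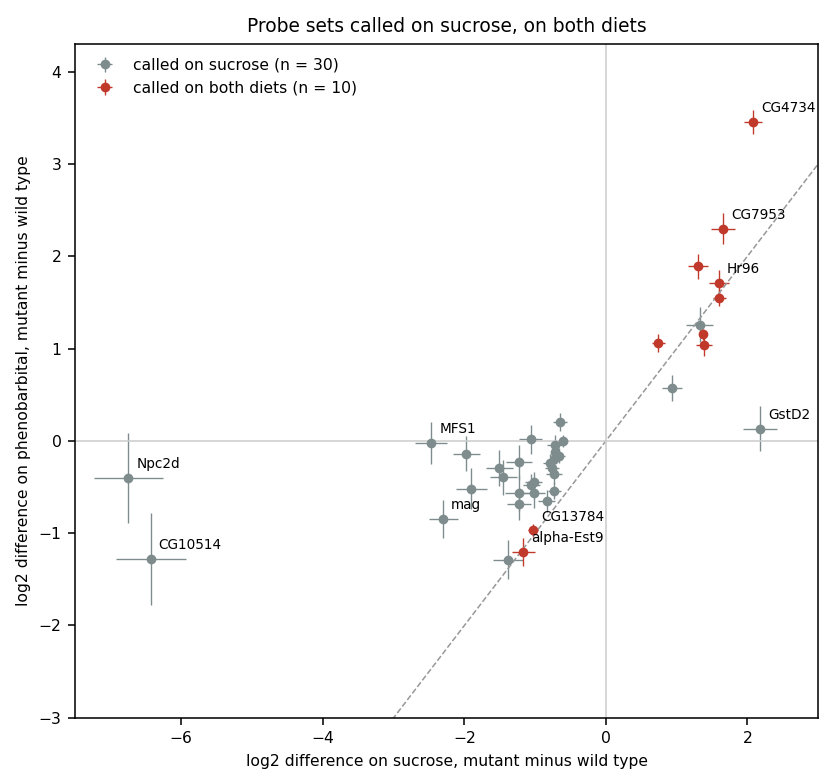
Each of the 40 called probe sets by its log2 difference on sucrose (x axis) and on phenobarbital (y axis), mutant minus wild type, with bars for the SE of the fit and a dashed line of equal differences. The 10 called on both diets are red and lie near the line or above it; Npc2d, CG10514, MFS1 and GstD2 lie near 0 on the y axis relative to their size on sucrose.

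The lower calls differed less on phenobarbital than on sucrose, and the higher calls by about as much. The median difference of the 11 higher calls was 1.26 on phenobarbital and 1.38 on sucrose. That of the 29 lower calls was -0.40 on phenobarbital and -1.05 on sucrose, and 28 of the 29 were smaller there. CG4734 averaged 13.25 in the mutant and 9.80 in wild type on phenobarbital, a wider gap than on sucrose (3.46 ± 0.13; limma adjusted p = 1.89e-05). CG7953 and CG8997 stood 2.30 ± 0.17 and 1.89 ± 0.14 higher there (adjusted p = 0.000853 each), and CG7916 of the same cluster was called as well (1.41; adjusted p = 0.0314). CG13784 differed by -0.97 ± 0.07 (adjusted p = 0.000724) and alpha-Est9 by -1.20 ± 0.16 (adjusted p = 0.0294).

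Npc2d averaged 2.04 in the mutant and 2.44 in wild type on phenobarbital, dim in both. MFS1 averaged 2.09 in the mutant and 2.11 in wild type there, so no lower level could be read for Npc2d and MFS1. CG10514 averaged 2.18 in the mutant and 3.46 in wild type, whose arrays had 4.54, 3.65 and 2.20. These groups did not overlap, but only wild-type array 1 was above the dim limit and CG10514 was not called (-1.28 ± 0.50, limma adjusted p = 0.371). For mag, which stayed bright, the mutant averaged 7.94 and wild type 8.78 on phenobarbital (-0.85 ± 0.21; limma adjusted p = 0.262). GstD2 averaged 12.82 in the mutant and 12.69 in wild type, bright in both (0.13 ± 0.24; adjusted p = 0.694). Npc2e averaged 13.28 in the mutant and 8.53 in wild type, again without a call (4.75; adjusted p = 0.199), and its mutant arrays were above its wild-type arrays on both diets.

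The test of the difference between diets called 0 probe sets in limma, while 624 (3.32%) had an unadjusted p under 0.05. Of the 40, 28 were under that unadjusted p, 6 of the higher and 22 of the lower calls. Npc2d (6.35 ± 0.68, phenobarbital minus sucrose, SE) and Cpr66D (0.59 ± 0.06) came closest to a call, at an adjusted p of 0.0723. With a robust prior and an intensity trend limma called 7, and without wild-type sucrose array 3 it called 15. Since the 40 were chosen on sucrose, a smaller difference on phenobarbital is in part what such a choice gives.

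A few genes were called between genotypes on phenobarbital and not on sucrose, 12 probe sets in all, of which 10 had the same sign on sucrose. Npc2h was among them, with -1.95 on phenobarbital (limma adjusted p = 0.00739) and -1.02 on sucrose (adjusted p = 0.0963). The protease genes Jon65Aii and Jon99Fi had -3.05 and -2.23 there (adjusted p = 0.000318 and 0.00635), and -0.92 and -1.35 on sucrose. Lsp2 had 6.52 there (adjusted p = 0.0229) and 2.64 on sucrose.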

How the data were processed

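The deposited values are normalized intensities per probe set, made with GCRMA per the submitters' processing notes, a method that subtracts modelled background, normalizes between arrays and combines the probes of each set. Its version is not stated in the sources used. The deposited intensities were taken as linear from their range, and log2 of the deposited intensity was computed here without further scaling. GCRMA shrinks weak probe sets to a common low value, so dim levels carry little information and their spread is small. Of 18769 probe sets, 13647 named 1 gene, 402 several and 4720 none in the platform annotation, for 11982 distinct genes. Symbols were checked through Entrez identifiers for 13544 of them, and gene order came from the RefSeq gene table of Release 6 plus ISO1 MT. No sequences were used.

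Limma 3.58.1 in R 4.3.3 was fitted to all 12 arrays with a mean for each of the 4 groups and empirical Bayes variances (8 residual degrees of freedom, and 8.8 after moderation), and p-values were adjusted by Benjamini and Hochberg over all probe sets. The script was tested on simulated data. Calls needed an adjusted p under 0.05 and a 1.5-fold difference. The named genes were Hr96, all called genes, 3 measured genes on each side of Hr96, the called and up to 3 strongest members of each of 42 gene lists, and the 10 uncalled genes with the largest differences. Genes outside that rule were named as neighbours or family members after their values were seen. A gene entered a list through its probe set with the highest mean. The comparison, the lists and the rule were chosen with earlier results of these data known. Alternatives were no minimum fold, a 2-fold minimum, the 6 sucrose arrays alone, quantile normalization, a robust prior with an intensity trend, array weights, leaving out dim probe sets, a floor at 4, a replicate block, leaving out each array, and, added after seeing the data, the testis marker mean as a covariate. Precision is limited by 3 arrays a group. Figures used Python 3.11.15, numpy 2.4.6 and matplotlib 3.10.9.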

Additional observations from a re-analysis of the deposited data

How the results depend on the processing

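Of the 40 calls, 3 (EMC6, Smg6 and CG10514) were made under all 22 alternatives, 15 under at least 20 and 9 under fewer than 11, and no call changed sign under any of them. These counts, and those of single genes out of 22, include settings whose outcome was fixed in part. No minimum fold keeps all 40 by construction, and a 2-fold minimum keeps only the 27 that were at least 2-fold. The filter on dim probe sets tested 33 of the 40, and calls it left out were counted as not made. Counts of higher and lower calls were 2 and 2 on the 6 sucrose arrays alone, 31 and 141 with array weights, a fit in which mutant sucrose array 1 took nearly all the weight, and 22 and 57 with the testis marker mean as a covariate. Lower calls numbered 47 with no minimum fold, 18 with a 2-fold minimum, 44 with the filter on dim probe sets and 19 with dim values set to 4. Calls shared with phenobarbital were 16 with that filter and 28 with array weights, against 10. Differences between diets were called 7 times with a robust prior and intensity trend, 5 with array weights and 2 with dim values set to 4, against 0. Leaving out 1 array gave 9 to 15 higher calls, 10 to 170 lower calls, 8 to 12 shared calls and 0 to 15 differences between diets. Without wild-type sucrose array 3 lower calls rose to 170 and without mutant sucrose array 1 they were 10; why these arrays decide the count was not tested. Mutant and wild-type arrays with the same number did not deviate together on sucrose (r = -0.07, -0.71 and -0.46). Differently numbered pairs on sucrose had -0.54 to 0.67. The deviations of the 3 arrays of a group sum to 0, so these values cannot settle whether the numbers pair the sucrose arrays. On phenobarbital, arrays with the same number had r = 0.31, 0.35 and 0.70. Of the differently numbered pairs there, wild-type array 2 with mutant array 1 had 0.40 and wild-type array 1 with mutant array 2 had 0.15. The others had -0.57 to -0.36. Whether the numbers pair the phenobarbital arrays is thus not settled by these values. With the replicate number as a block 11 probe sets were called higher, 21 lower, 9 shared with phenobarbital and 0 between diets. Among uncalled genes, 45 of 2469 values under other settings became calls and 3 changed sign at sizes near 0: TotZ (-0.0013 with array weights, and -0.016 to 0.029 when 1 array was left out) and tnc (-0.013 to 0.0013 when 1 array was left out). Signal over background limits every statement on dim genes, since 44.4% to 45.6% of probe sets per array were dim.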
